A study of Homo sapiens with 7 samples.

Results

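The baseline transcriptome of control Huh-7 cells was described from the 3 libraries of cells transfected with control siRNA (siC), out of 7 libraries in the series, chosen by their label alone. Huh-7 cells descend from a human hepatocellular carcinoma and grow as a permanent line. The cells were grown in serum-containing medium and harvested 72 h after transfection, and ribosomal RNA was depleted from total RNA before directional library preparation. The other 4 libraries come from cells depleted of IGF2BP1 and were not used. All values are FPKM, reads of a gene divided by its length and by the size of the library, so that levels can be set side by side between genes. A control siRNA was present in all 3 libraries, no untransfected culture was analysed here, and a single line stands for one tumour. The labels do not state that the 3 libraries come from separate cultures, so the spread between them may be partly technical.

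Hepatocytes secrete most proteins of the blood plasma, among them albumin, the apolipoproteins of lipoprotein particles and the clotting factors, and they carry the enzymes of urea, glucose, bile acid and drug metabolism. Alpha-fetoprotein (AFP) is a main plasma protein made by the fetal liver, and many liver tumours switch AFP, the cell-surface proteoglycan glypican-3 (GPC3) and RNA-binding proteins such as IGF2BP1 and LIN28B on again. Liver-derived lines are known to keep part of the hepatocyte programme and to lose other parts of it.

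The 3 libraries held 22525892, 33212205 and 13983987 reads on genes, recovered from the FPKM values as described in the processing. One FPKM over 1000 bases was worth 13.8 reads in the shallowest library and 32.0 in the deepest. Replicate 3 was both the shallowest library and the one that stood apart. Over 10593 protein-coding genes whose mean was 1 FPKM or more, 99.7% were within 1.5-fold between replicates 1 and 2, against 80.3% between 1 and 3 and 83.8% between 2 and 3. For this reason each value below is given per library, in the order of replicates 1, 2 and 3.

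All 4 marker genes of the line were high in each library. AFP stood at 3392, 3450.1 and 2611 FPKM and ALB, which encodes serum albumin, at 1852, 1884 and 1705 FPKM. APOA1, the main protein of high-density lipoprotein, stood at 531, 524 and 277 FPKM and GPC3 at 369, 372 and 279 FPKM. AFP was above ALB in 3 of 3 libraries, with an AFP to ALB ratio of 1.83, 1.83 and 1.53. APOA1 was above GPC3 in replicates 1 and 2, but the 2 genes did not separate in replicate 3. The markers thus fitted the labelled identity, a hepatic tumour line.

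A gene was counted as on at 1 FPKM or more in each library, as off under 0.1 FPKM in each library, and as low otherwise. By this rule 13302 of 58174 annotated genes were on, 12383 low and 32489 off. Of 19799 protein-coding genes 10303 (52.0%) were on, 3218 low and 6278 (31.7%) off, and these shares are the background for the gene lists below. Only 529 protein-coding genes passed 1 FPKM in 1 or 2 of the libraries but not in all 3. The median level of a protein-coding gene that was on was 8.49 FPKM. Levels were steep: 4552 protein-coding genes had a mean of 10 FPKM or more, 297 reached 100 FPKM and 16 reached 1000 FPKM. Being off depends on depth, since 0.1 FPKM equals 3 reads in replicate 3 only for a gene of 2180 bases, and 3769 of the 6278 off genes were at least that long. A listing at 0 does not show that an RNA was absent in either coding or noncoding classes, since all 37 genes of the mitochondrial genome, which every cell uses, were listed at 0, the protein-coding ones included. Off therefore means only that the table assigned few or no reads to a gene, and limits from a count of 0 cover counting error alone.

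The 20 highest protein-coding genes formed 3 kinds. AFP led with 3151 ± 469 FPKM (SD, n = 3), which rested on between 117128 and 360156 reads per library. Beside AFP and ALB stood 4 genes that most cells use at high levels: the ferritin light chain FTL (2029, 2023 and 3058 FPKM), the translation elongation factor EEF1A1 (1719, 1737 and 1478 FPKM), the ribosomal protein gene RPS12 (1669.6, 1652 and 1019 FPKM) and the glycolytic enzyme GAPDH (954, 931 and 814 FPKM). The other 14 were histone genes of the replication-dependent clusters, short genes whose transcripts mostly lack a poly(A) tail and which total RNA libraries can record. HIST1H3B, a histone H3 gene, was the highest of them at 2168, 2141 and 4020.4 FPKM. It was below AFP in replicates 1 and 2 and above it in replicate 3, so the order of the first 2 genes was not fixed by these data. HIST2H2AA3 and HIST2H2AA4 are near-identical copies, and their levels of 1069, 1064 and 1397 and 1053, 1006 and 1362 FPKM are uncertain because reads could be split between them.

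**Figure D1:**
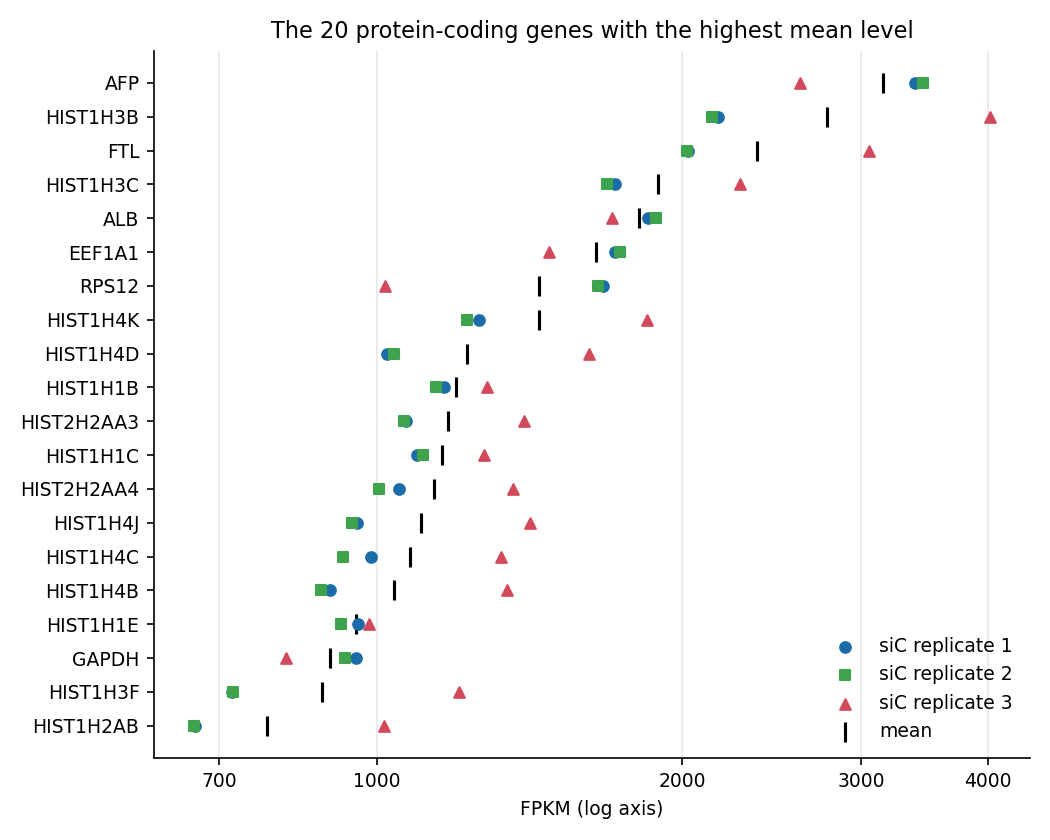
Level of the 20 protein-coding genes with the highest mean, in FPKM on a log axis, with 1 symbol per control library and a bar at the mean of 3. Replicates 1 and 2 nearly coincide, and replicate 3 is the highest library for 15 of the 20 genes and the lowest for 5, AFP, ALB, EEF1A1, RPS12 and GAPDH.

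Measured as a group, the 72 annotated histone genes of these clusters took 10.9%, 10.8% and 17.0% of all protein-coding FPKM, and 60 of them were on. The 86 ribosomal protein genes, of which 82 were on, took 7.05%, 6.88% and 4.90% of protein-coding FPKM. The 75 genes for secreted liver proteins in the plasma, apolipoprotein, coagulation and acute phase lists together took 5.11%, 5.14% and 3.93%, and AFP alone 1.46%, 1.49% and 1.16%. By FPKM, which divides by length, histone genes were therefore the largest of the 3 groups in each library. By reads, in which long genes weigh more, they were the smallest, with 1.48%, 1.45% and 2.27% of all reads on genes. Ribosomal protein genes took 4.39%, 4.28% and 3.13% of these reads and secreted liver proteins 4.08%, 4.13% and 3.51%. On both scales the histone share was highest and the other shares lowest in replicate 3.

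AFP and ALB are neighbours on chromosome 4 and arose from one ancestral gene. AFP (ENSG00000081051) lies at chr4:73431138-73456174 and ALB (ENSG00000163631) at chr4:73397114-73421482 of GRCh38, both on the plus strand. These annotated spans include transcripts that begin further upstream, so the RefSeq starts used for the sequences lie within them. AFM, the third member of the family in the same 107 kb, was low at 0.347, 0.612 and 0.453 FPKM. The sequences just before the starts of 3 high liver genes are shown beside those of 2 drug-metabolizing genes that were off, to set on and off genes of one cell type side by side. Each stretch is the 150 bases before the RefSeq start (GRCh38.p14), written 5′ to 3′ on the gene's strand, and capitals mark matches to a TATA box (TATAAA, gene strand only), an HNF4 core (CAAAGT), a C/EBP site (TTGCNNAA) or a CCAAT box (CCAAT), the last 3 on either strand.
AFP, chr4:73436071-73436220, plus strand: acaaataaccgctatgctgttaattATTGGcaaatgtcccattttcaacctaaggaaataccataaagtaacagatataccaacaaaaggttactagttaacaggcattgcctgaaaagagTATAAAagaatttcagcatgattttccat
ALB, chr4:73404137-73404286, plus strand: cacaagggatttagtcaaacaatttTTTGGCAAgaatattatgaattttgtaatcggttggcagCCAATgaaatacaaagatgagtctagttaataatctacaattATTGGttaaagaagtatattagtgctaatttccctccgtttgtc
APOA2, chr1:161223629-161223778, minus strand: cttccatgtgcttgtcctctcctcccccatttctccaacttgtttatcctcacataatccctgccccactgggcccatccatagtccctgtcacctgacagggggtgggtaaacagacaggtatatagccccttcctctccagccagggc
CYP3A4, chr7:99784185-99784334, minus strand: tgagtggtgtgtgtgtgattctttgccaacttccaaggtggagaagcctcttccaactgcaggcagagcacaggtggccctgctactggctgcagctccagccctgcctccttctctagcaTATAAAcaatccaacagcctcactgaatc
CYP2E1, chr10:133527213-133527362, plus strand: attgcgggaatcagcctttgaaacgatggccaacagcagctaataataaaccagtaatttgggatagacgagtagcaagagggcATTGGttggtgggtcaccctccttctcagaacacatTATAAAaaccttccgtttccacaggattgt

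The AFP stretch held TATAAA beginning 29 bases before the start and a CCAAT box on the opposite strand at 125 bases. The ALB stretch held a C/EBP match at 125 bases and CCAAT boxes at 86 and 44 bases, on opposite strands. Matches were not particular to genes that were on, since CYP2E1 held CCAAT and TATAAA as well, CYP3A4 held TATAAA, and APOA2 held no match. Among 76 liver genes of 7 lists that were on, 54 had a RefSeq promoter entry, as had 34 of the low and 20 of the off liver genes, and the same window was read for all 27305 promoters. CAAAGT was held by 4 of 54 liver genes on, 7 of 34 low and 5 of 20 off, and by 6.0% of all promoters. TTGCNNAA was held by 7 of 54, 6 of 34 and 1 of 20, against 5.08% of all promoters. TATAAA was held by 7 of 54, 8 of 34 and 6 of 20 against 4.89%. CCAAT was held by 15 of 54, 10 of 34 and 9 of 20 against 24.4%. Among all protein-coding genes with a promoter entry, TATAAA was held by 2.38% of those on and 10.5% of those off. The shares were 3.34% and 6.66% for CAAAGT and 2.81% and 5.14% for TTGCNNAA. CCAAT went the other way, with 28.54% and 24.97%. A larger share of TATAAA and CAAAGT in off genes was thus not particular to liver genes. A match is only a run of letters, and none of these windows was tested for binding.

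Plasma carrier proteins were mostly on. Of 19 genes in the list 14 (73.7%) were on and 1 off, with a median of 22.98 FPKM against 1.58 FPKM for all protein-coding genes. After AFP and ALB came AMBP, the precursor of alpha-1-microglobulin and bikunin (832, 802 and 398 FPKM), the iron carrier transferrin TF, which shares exon sequence with SRPRB (350.3, 351 and 195 FPKM), the retinol carrier RBP4 (265, 262 and 233 FPKM) and the protease inhibitor A2M (204, 202 and 159.9 FPKM). TTR, the thyroxine carrier transthyretin, was far below them at 26.5, 25.9 and 16.5 FPKM. Haptoglobin (HP), the carrier of free haemoglobin, was at 2.91, 3.01 and 1.63 FPKM, and A1BG was off. In replicate 3 AMBP and TF were at 0.49-fold and 0.56-fold the mean of the other libraries, a difference larger than the spread between those, whereas RBP4 was at 0.88-fold.

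Among 15 apolipoprotein and assembly genes 9 (60.0%) were on. APOA2, the second protein of high-density lipoprotein, was the highest at 899.7, 874 and 507 FPKM. APOB, the scaffold of very-low-density lipoprotein, stood at 541, 571 and 669 FPKM and MTTP, which loads lipid onto it, at 58.6, 60.9 and 61.9 FPKM. APOB and MTTP were highest in replicate 3, whereas APOA1, APOA2, APOE (407, 384 and 192 FPKM) and APOC1 (181, 174 and 83.7 FPKM) were between 0.47-fold and 0.57-fold the mean of the other libraries there. The 4 genes of the APOA1 cluster on chromosome 11, within 48.3 kb, were unequal: APOA1 high, APOC3 at 26.3, 28.9 and 22.7 FPKM, and APOA4 (0.777, 0.933 and 0.641 FPKM) and APOA5 (0.165, 0.338 and 0.112 FPKM) low. LPA was off, and APOF and APOC4 were listed at 0 in all libraries.

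Coagulation and complement genes had the highest share on of the secreted lists, 21 of 27 (77.8%), with 3 off. The 3 fibrinogen chains, whose genes share 49.96 kb of chromosome 4, stood at 361, 366 and 271 FPKM for FGB, 265, 276 and 172 FPKM for FGA and 178, 183 and 159 FPKM for FGG. Prothrombin (F2) was at 81.4, 76.2 and 39.7 FPKM and vitronectin (VTN) at 112, 107 and 100.4 FPKM. The complement genes C5 (45.4, 46.4 and 44.9 FPKM) and C3 (16.6, 15.9 and 10.6 FPKM) were on, while C9 was off and C4A, which has a near-identical copy, was off at 0.0764, 0.0608 and 0.0101 FPKM. Of the clotting factors, F5, F7, F10 and F12 were between 5.73 and 11.98 FPKM on average, F11 was low at 0.667, 0.826 and 0.756 FPKM, and F9, the gene for clotting factor IX, was listed at 0. Plasminogen (PLG) did not pass 0.137 FPKM in any library. The limit that a count of 0 allows for F9 was 0.0784 FPKM in replicate 3, as 3 reads.

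The acute phase list, of genes most of which the liver raises in inflammation, had the smallest share on of the secreted lists. Only 4 of 14 were on: ITIH2 (264, 266 and 175 FPKM), ORM1 (81.9, 78.8 and 48.4 FPKM), ORM2 (58.8, 56.9 and 29.9 FPKM) and FGL1 (50.5, 52 and 33.4 FPKM). ORM1 and ORM2 are near-identical genes, so the division of reads between them is uncertain. C-reactive protein (CRP) was listed at 0, and the serum amyloid genes SAA1 and SAA2 and the endotoxin-binding LBP were off. HAMP, which encodes the iron hormone hepcidin, was low at 0.502, 0.55 and 0.531 FPKM. Serpin A3 reached 0.1 FPKM in replicate 1 only. The share on depends on how the lists were divided, since the fibrinogen genes and SERPINA1 (65.8, 66.6 and 76.5 FPKM) were counted with coagulation. No inflammatory stimulus was part of the design.

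**Figure D2:**
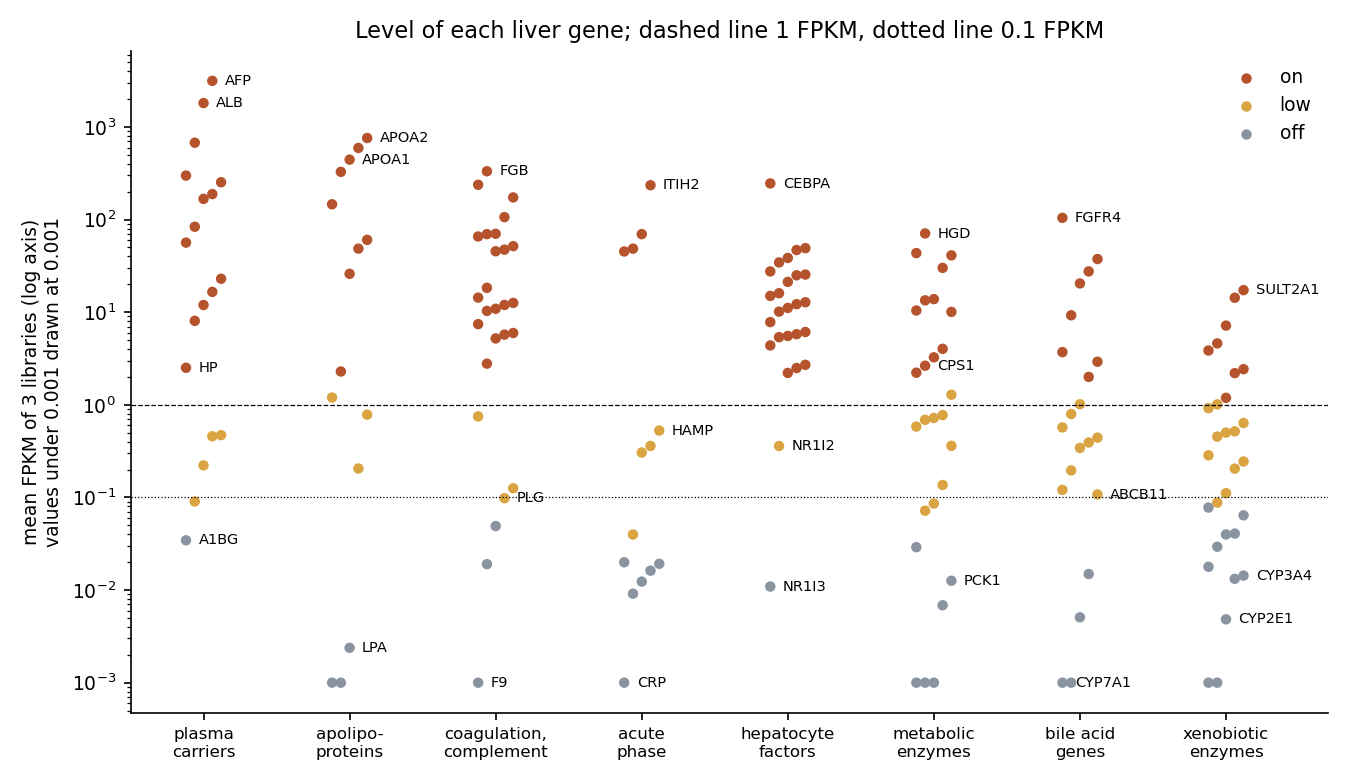
Mean FPKM of each gene in 8 liver lists, on a log axis, 1 point per gene, coloured by class, with lines at 1 and 0.1 FPKM and means under 0.001 drawn at 0.001. Carrier proteins, apolipoproteins, coagulation genes and transcription factors lie mostly above the dashed line, whereas genes of the acute phase, bile acid and xenobiotic lists are spread across all 3 classes.

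Hepatocyte transcription factors were the most complete of the liver lists, with 24 of 26 (92.3%) on. CEBPA, the leucine zipper factor of the differentiated hepatocyte, was the highest at 249, 239 and 250.1 FPKM. The nuclear receptor HNF4A was at 52.1, 52.6 and 36 FPKM and the bile acid receptor NR1H4 at 44.9, 47.8 and 54.9 FPKM. The forkhead factors FOXA3 (35.8, 35.7 and 32 FPKM), FOXA1 (23, 23.5 and 28.7 FPKM) and FOXA2 (5.45, 5.28 and 12.7 FPKM) were on in this order of means. PROX1, a factor of the early liver bud, ranged from 17.7 to 44.9 FPKM, with replicate 3 above the others. The 2 that were not on were both xenobiotic receptors: the pregnane X receptor NR1I2 was low at 0.451, 0.342 and 0.284 FPKM and the constitutive androstane receptor NR1I3 was off at 0.0139, 0.0189 and 0 FPKM.

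Enzymes showed another picture. Over the xenobiotic, metabolic and bile acid lists 28 of 78 genes (35.9%) were on and 21 off, with a median of 0.544 FPKM. The 75 secreted liver proteins had 48 (64.0%) on, 13 off and a median of 11.97 FPKM. Both sets were chosen with earlier results of these data known, and the difference between them was not tested.

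Of 30 genes for drug and alcohol metabolism 8 (26.7%) were on and 11 off. SULT2A1, the sulfotransferase of steroids and bile acids, was the highest at 20.6, 19.3 and 12.1 FPKM, followed by CYP1A1, which dioxin-like compounds induce, at 16.6, 15.3 and 11.1 FPKM. The glucuronosyltransferase UGT2B4 was at 7.24, 7.33 and 6.96 FPKM. The main cytochromes P450 of the adult liver were off or low. CYP3A4 was at 0, 0.0199 and 0.0231 FPKM, which rested on 0, 2 and 1 reads, and CYP2E1, which oxidizes ethanol, at 0.00476, 0.00973 and 0 FPKM. CYP1A2 and CYP2D6 were off, CYP2A6 and CYP4A11 were listed at 0, and CYP2C8 and CYP2B6 were low. The fetal form CYP3A7 was low as well, at 0.13, 0.115 and 0.0617 FPKM. The alcohol dehydrogenases ADH1A and ADH4 were low and ADH1B was off.

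Metabolic enzymes of the adult liver were divided, with 12 of 27 (44.4%) on and 6 off. HGD, of tyrosine breakdown, was the highest at 71.6, 71.2 and 69.9 FPKM. HGD differed little between libraries, with a coefficient of variation of 1.3%. In the urea cycle ASL (35.6, 32.5 and 22.2 FPKM), ARG1 (15.6, 16.6 and 9.35 FPKM) and ASS1 (15, 15.4 and 9.91 FPKM) were on at middle levels and CPS1, the entry enzyme, at 2.89, 2.63 and 2.41 FPKM, while OTC was low at 0.78, 0.926 and 0.458 FPKM. Genes of glucose production were unequal: PCK1 (0.0134, 0.0137 and 0.0107 FPKM) and G6PC (0.0556, 0.00947 and 0.022 FPKM) were off, FBP1 (1.43, 0.992 and 1.44 FPKM) was low because of replicate 2, and PCK2, the mitochondrial isoenzyme of PCK1, was on (11.6, 11.5 and 7.2 FPKM). SDS and GLYAT were listed at 0. The glucose transporter SLC2A2 was on at 2, 2.04 and 2.64 FPKM.

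The bile acid genes were unequal. The receptor FGFR4 stood at 118, 117 and 78.1 FPKM, its co-receptor KLB at 26.6, 26.7 and 29.5 FPKM and their ligand FGF19, a hormone that the healthy liver hardly makes, at 19.5, 18.6 and 23.3 FPKM. CYP7A1, the rate-limiting enzyme of bile acid synthesis that this signal is known to lower, was listed at 0 in all libraries, where 3 reads would be 0.0739 FPKM in replicate 3. CYP8B1, the sterol 12-hydroxylase, was also listed at 0, whereas CYP27A1 of the alternative route was on at 10.1, 10.3 and 7.38 FPKM. The other synthetic genes of the list were low: AKR1D1 at 0.903, 0.707 and 0.775 FPKM, AKR1C4 at 0.598, 0.62 and 0.493 FPKM, the ligase SLC27A5 at 0.365, 0.405 and 0.407 FPKM, CYP7B1 at 0.201, 0.164 and 0.223 FPKM and BAAT, which joins bile acids to amino acids, at 0.135, 0.12 and 0.107 FPKM. For transport, ABCC2, an export pump of the canalicular membrane, was on at 38.4, 38.6 and 35.5 FPKM and the bile salt pump ABCB11 low at 0.116, 0.109 and 0.0987 FPKM. SLC10A1, the main bile acid importer of hepatocytes and the entry receptor of hepatitis B virus, was off with reads in replicate 2 only. In all, 8 of 21 genes (38.1%) were on and 4 off.

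Oncofetal and fetal liver genes were on more widely than the average gene, 23 of 31 (74.2%) with 5 off and a median of 21.96 FPKM. After AFP and GPC3 the pyruvate kinase PKM (252, 251 and 156 FPKM) and the surface protein CD24 (195, 206 and 229 FPKM) were highest. IGF2BP1, an oncofetal RNA-binding protein and the target of the siRNAs in the libraries not used here, stood at 81.9, 80.4 and 84.4 FPKM, above its paralogues IGF2BP2 (18.8, 19.6 and 15.6 FPKM) and IGF2BP3 (16.2, 17.8 and 18.3 FPKM) in 3 of 3 libraries. Genes of the let-7 circuit were on together: the let-7 blocker LIN28B at 54.4, 56.1 and 83.1 FPKM and the let-7 targets TRIM71 at 71.3, 75.1 and 86.9 FPKM and HMGA2 at 20.5, 21.2 and 24.2 FPKM. The paralogue LIN28A was off, with reads in replicate 1 only. SALL4, a fetal liver zinc finger factor, was on at 3.15, 2.82 and 3.63 FPKM.

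IGF2 and H19 are imprinted neighbours that stood far apart in level. IGF2, the fetal growth factor, was at 42.1, 46.9 and 31.3 FPKM and H19, the noncoding RNA next to it on chromosome 11, at 0.292, 0.221 and 0.386 FPKM, a ratio of 144, 212 and 81.0. Reads of IGF2 may include those of the readthrough gene INS-IGF2, which shares its exons. On chromosome 14 DLK1, a growth regulator of fetal cells, was on at 3.7, 3.17 and 1.45 FPKM and its neighbour MEG3 was listed at 0, from which no level can be read. PEG10 (101, 107 and 172 FPKM), MEST (20.6, 21.9 and 24.7 FPKM) and PLAGL1 (2.1, 2.26 and 3.01 FPKM) were on, and PEG3 was off. The allele of origin was not measured. The fetal globins HBG1, HBG2 and HBE1 did not pass 0.215 FPKM, although the fetal liver is a site of blood formation.

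Genes often raised in liver tumours were on in 26 of 33 cases (78.8%). The growth factor midkine (MDK, 157, 152 and 87.8 FPKM), the replication enzyme TOP2A (125, 134 and 131 FPKM) and TXNRD1, a target of the oxidative stress factor NRF2 (121, 121 and 110.3 FPKM), led the list. Genes of this list that act in cell division or its control, of which no separate list was counted, included AURKA at 88.7, 92.1 and 71.2 FPKM, BIRC5 at 49.6, 49.2 and 41.2 FPKM, MKI67 at 23.8, 24.8 and 35.1 FPKM and CCND1 at 57, 56.5 and 59.2 FPKM. MYC stood at 34.2, 33.1 and 22.1 FPKM, and TERT, the catalytic subunit of telomerase that most adult cells silence, at 2.84, 2.73 and 3.42 FPKM. Of genes in this list tied to Wnt signalling, again not counted as a list of their own, LGR5 (6.73, 6.39 and 7.37 FPKM) and RNF43, which overlaps another annotated gene on the same strand (3.79, 3.75 and 4.59 FPKM), were on, while AXIN2 (0.675, 0.681 and 0.792 FPKM) and NKD1 (0.184, 0.176 and 0.129 FPKM) were low. LCN2 was listed at 0. The liver noncoding RNA HULC was at 23.7, 19.9 and 7.58 FPKM, lower in replicate 3 than in the others.

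Tumour suppressors were mostly on, 22 of 27 (81.5%), with HHIP off. GSTP1, a glutathione transferase that many liver tumours silence, was the highest at 291, 280.0 and 251 FPKM. The cell cycle inhibitor CDKN1A was barely on at 2, 1.82 and 1.45 FPKM. RB1 (14.8, 15.9 and 22.3 FPKM), CDKN2A (9.78, 8.79 and 7.92 FPKM) and CDKN1B (31.8, 32.5 and 29.5 FPKM) were on. These are transcript levels and do not tell whether a protein is intact.

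Cancer testis antigens, which tumours may switch on out of place, were mostly off, 22 of 30 (73.3%). Of 3 that were on, BRDT, a testis bromodomain protein, was the highest at 28.4, 28.6 and 26.8 FPKM. MAGEB2 was at 2.56, 3.24 and 6.41 FPKM and PRAME at 3.97, 3.36 and 2.29 FPKM. Replicate 3 decided this count: without it MAGEC2 (1.75, 1.35 and 0.876 FPKM) and PAGE1 (1.03, 1.13 and 0.765 FPKM) passed as well, and 5 were on. Of these families near-identical copies are common, and MAGED4B, which has one, was listed at 0.

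Epithelial genes were on beside some mesenchymal ones. Keratin 8 (400.1, 389.5 and 297 FPKM) and keratin 18 (66.5, 67.2 and 127 FPKM), the pair of simple epithelia and hepatocytes, were on. Exons of their genes overlap on opposite strands, so the division of reads between them is uncertain. The junction genes CLDN1 (140.0, 148 and 209.9 FPKM) and CDH1 (13.5, 12.7 and 8.54 FPKM) were on as well. KRT7, the bile duct keratin, was listed at 0, whereas KRT19, another duct keratin, was at 49.9, 50.2 and 28.3 FPKM. Of the mesenchymal genes in the list FN1 was the highest, at 190, 186 and 143 FPKM. CDH2 (16.4, 16.2 and 19.3 FPKM), VIM (9.95, 9.34 and 6.69 FPKM) and ZEB1 (4.3, 4.85 and 5.29 FPKM) were also on, and TWIST1, TWIST2, SNAI2 and ZEB2 were off. In all, 16 of 24 genes (66.7%) were on and 7 off.

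The HOX genes, which mark position along the body axis, differed by cluster. Of 39 genes 12 (30.8%) were on, 6 of 11 in HOXA, 5 of 9 in HOXC and 1 of 9 in HOXD. In HOXB none of 10 was on, the highest mean was 0.192 FPKM, and the summed level of the cluster was between 0.171 and 0.354 FPKM. HOXC10 was the highest at 12.7, 12.5 and 10.7 FPKM and the rest of the genes that were on lay between 1.56 and 3.91 FPKM on average. HOXD1 was the one HOXD gene on, at 3.8, 3.4 and 4.01 FPKM.

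**Figure D3:**
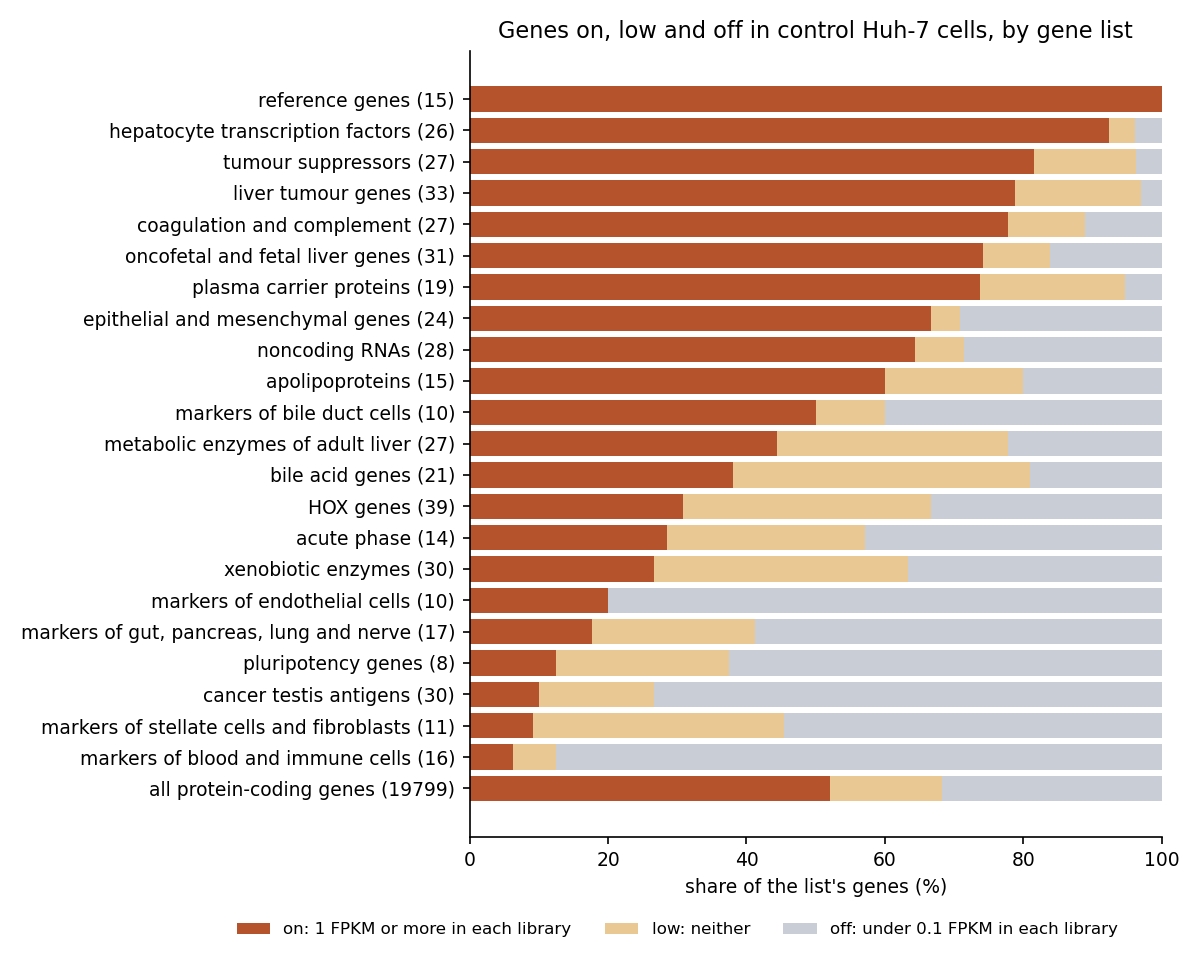
Share of genes on, low and off in each of 22 gene lists (number of genes in brackets) and in all protein-coding genes, which form the bottom bar. Reference genes and hepatocyte transcription factors reach 100% and 92.3% on, and markers of blood and immune cells have the smallest share on, 6.25%.

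Markers of other cells were used to look for them in the cultures. Of 37 markers of stellate cells and fibroblasts, endothelium, and blood, 4 were on, 5 low and 28 off. Off were COL1A1, ACTA2 and DCN among the fibroblast markers, CDH5, KDR and TEK among the endothelial ones and PTPRC and HBB among those of blood. The 5 low ones were COL1A2, COL3A1 (0.39, 0.28 and 0.267 FPKM), PDGFRB (0.648, 0.704 and 0.509 FPKM) and RGS5 (0.356, 0.371 and 0.479 FPKM) of the fibroblast list and CD14 (0.971, 1.24 and 0.462 FPKM) of the blood list. The 4 on were LYZ, the gene for lysozyme, at 162, 162 and 147 FPKM, EGFL7 at 17.3, 15.1 and 10.5 FPKM, LUM at 7.31, 7.02 and 8.09 FPKM and PECAM1 at 2.8, 3.05 and 2.58 FPKM. LYZ made up nearly all of the blood list's summed level, which was between 148 and 164 FPKM. The summed level was between 9.60 and 10.2 FPKM for the fibroblast list and between 13.2 and 20.2 FPKM for the endothelial list. Without replicate 3 COL1A2 (1.19, 1.18 and 0.71 FPKM) passed too, giving 2 of 11 in the fibroblast list. In bulk samples, fewer cells of a type and less RNA per cell cannot be told apart.

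Among the epithelia that neighbour the liver in development, 5 of 10 bile duct markers (50%) were on, near the 52.0% of all protein-coding genes. Those on included KRT19, SLC4A2, SOX9 and SPP1, while AQP1 and MUC1 were off. SOX9, also a gene of liver progenitors, stood at 29.6, 28.4 and 36.9 FPKM. Of 17 genes of gut, pancreas, lung and nerve 3 were on and 10 off. The microvillus protein VIL1 (52.6, 50.1 and 29.1 FPKM) and CDX2, the homeobox factor of the intestine (7.13, 7.46 and 5.46 FPKM), were on, and the pancreatic factor PDX1 was low at 1.45, 1.72 and 0.93 FPKM. Of 8 pluripotency genes only the DNA methyltransferase DNMT3B was on (10.5, 10.2 and 8 FPKM), and POU5F1 was listed at 0. All 15 reference genes were on, from TBP at 8.02, 8.38 and 8.71 FPKM to EEF1A1.

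Outside protein-coding genes, the largest part of the signal came from 1 RNA. RN7SL2, a gene for the RNA of the signal recognition particle, which guides secretory proteins to the endoplasmic reticulum, stood at 76105, 72085 and 93755 FPKM and alone took 18.6% to 22.1% of all FPKM. Genes and copies of this RNA together took 25.7%, 24.6% and 29.4% of FPKM but 2.94%, 2.77% and 3.72% of reads, since they are short. RN7SL1, whose transcript is nearly identical, was listed at 0, so that the division of reads between the copies is uncertain. The same caution holds for RN7SK, RMRP, RPPH1 and SCARNA2, RNAs that every cell uses and which were listed at 0 in all 3 libraries. No level of these RNAs can be read from that listing.

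Of the reads on genes, 93.1%, 93.2% and 91.5% lay in protein-coding genes, and of summed FPKM 59.6%, 59.9% and 52.9%. RNAs listed at 0, such as those of the mitochondrial genome, are missing from these totals, so the shares are not shares of all RNA in a library. Small nucleolar RNAs had 154 of 943 genes on, with SNORD3A, the U3 RNA of ribosomal RNA processing, at 4533, 4752 and 7340.5 FPKM. Of 10241 processed pseudogenes 725 were on, and the highest was RPL41P1, a copy of a ribosomal protein gene, at 2376, 2703 and 928 FPKM. Of 1879 microRNA genes 222 were on, but these rows count fragments of hairpins and host transcripts and not mature microRNAs. MIR122, the hairpin of the main hepatic microRNA, was listed at 0, from which no level can be read. The mature microRNA was not measured in these libraries.

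Long noncoding genes were low as a class, with 1137 of 14707 on and a median of 2.51 FPKM among these. Hosts of small nucleolar RNAs were among the highest, with LRRC75A-AS1 (also SNHG29) at 294, 293 and 292 FPKM, SNHG8 at 140.1, 137 and 159.6 FPKM and GAS5 at 71.1, 69.5 and 62.4 FPKM. DANCR was at 99.98, 96.8 and 98.1 FPKM and NORAD, which binds Pumilio proteins, at 58.9, 61.3 and 79.4 FPKM. MALAT1, a nuclear RNA, was at 60.9, 65.7 and 153 FPKM, so that replicate 3 was 2.42-fold the mean of the others. LINC01419 was on at 48.6, 50.3 and 51.4 FPKM, with a coefficient of variation of 2.89%. SNHG16, another host gene, was at 69.6, 70.2 and 69.4 FPKM, and SNHG3, which overlaps RCC1 on the same strand and whose level is uncertain for this reason, at 57, 57.9 and 78.6 FPKM. Of the 10 highest, 1 is not reported here.

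Agreement between libraries was higher over protein-coding genes than over all biotypes. On log2(FPKM + 0.1), over 14652 genes whose mean was 1 FPKM or more, Pearson's r across genes was 0.972 between replicates 1 and 2, 0.913 between 1 and 3 and 0.927 between 2 and 3. Spearman's rho was 0.981, 0.933 and 0.942. For the 10593 protein-coding genes r was 0.997, 0.961 and 0.967. Genes are not independent replicates, and these values describe the libraries only. Replicates 1 and 2 still differed beyond counting noise, with a chi-square of 3.11 per degree of freedom over 18283 genes, and were kept as 2 samples, while the value was 56.8 between 1 and 3 and 53.6 between 2 and 3.

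**Figure D4:**
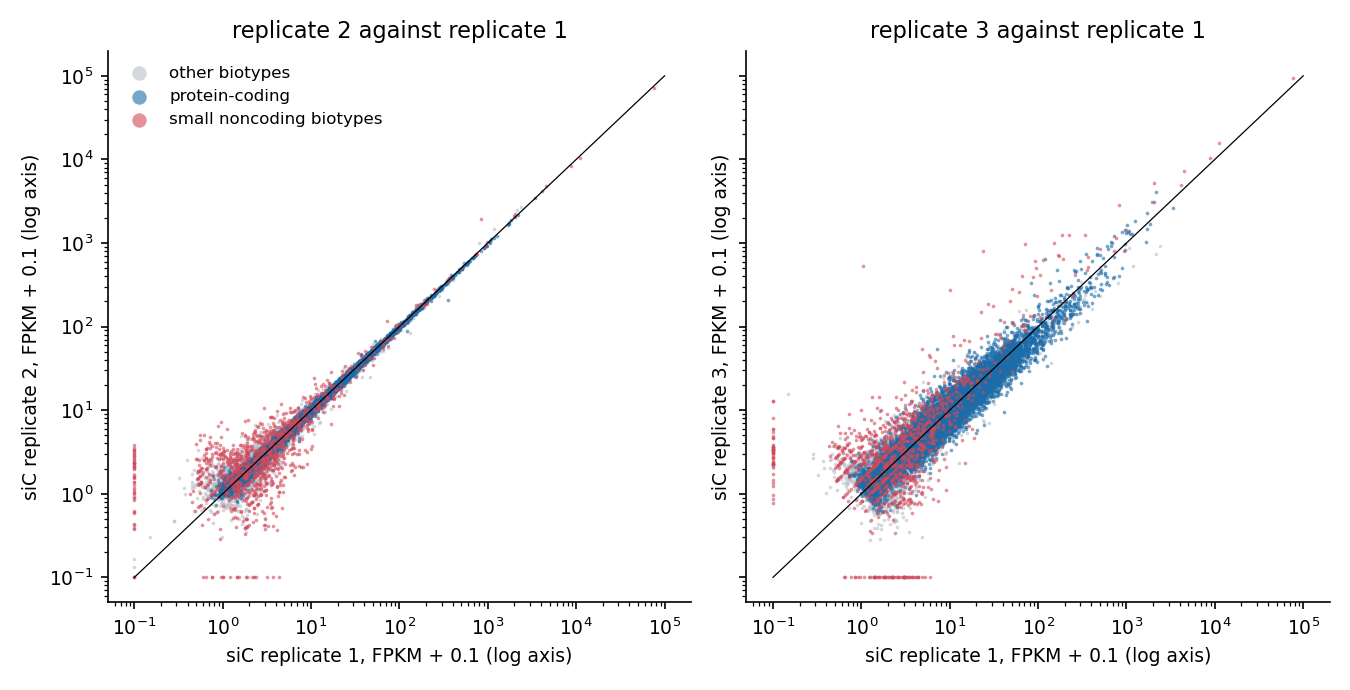
FPKM + 0.1 of each gene whose mean was 1 FPKM or more, replicate 2 (left) and replicate 3 (right) against replicate 1, both axes logarithmic, 1 point per gene, with the line of equality. Protein-coding genes lie close to the line on the left and more widely on the right, where small noncoding genes extend above it.

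Most of the spread of protein-coding genes came with replicate 3. At 100 to 1000 FPKM the median coefficient of variation was 16.3% over 3 libraries and 1.63% over replicates 1 and 2, beside 0.915% from counting alone. At 1 to 10 FPKM the values were 12.8%, 4.09% and 4.45%. The value for replicates 1 and 2 rests on 2 libraries and the counting value on the mean reads of 3. They are therefore not on one scale, and 4.09% does not show a spread below counting noise. The smallest variation among protein-coding genes of at least 100 FPKM was seen for PSMB5, a proteasome subunit (133, 131 and 134 FPKM), UCHL1 (135, 132 and 132 FPKM) and HIST1H1A (382, 387 and 392 FPKM). The splicing factor SRSF2 (112, 112 and 109 FPKM) and the ferritin receptor NCOA4 (101, 104 and 101 FPKM) came next. These genes were picked as the lowest of 297, and the lowest of many values from 3 libraries can be small by sampling alone. Their small variation therefore does not show that they are steady. Among protein-coding genes of at least 5 FPKM, those furthest above the other libraries in replicate 3 were the histone genes HIST1H4H (7.01, 7.94 and 54.2 FPKM), HIST1H4A (119, 117 and 646 FPKM) and HIST1H2AL (83.8, 89.1 and 336 FPKM), the matricellular gene CTGF (7.6, 7.38 and 25.8 FPKM) and CNOT6 of the deadenylase complex (6.58, 8.42 and 25.3 FPKM). Those furthest below were PRKCSH (40.9, 36.1 and 9.45 FPKM), ATP5I (126, 112 and 33.5 FPKM), NUCB1 (24.2, 21.9 and 6.59 FPKM), SART1 (20.3, 19.2 and 5.7 FPKM) and CTB-50L17.10 (19.6, 19 and 5.26 FPKM).

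Replicate 3 also differed by RNA class and by base composition. Summed FPKM of replicate 3 was 3.54-fold the mean of the other libraries for small nuclear RNAs, 1.70-fold for small nucleolar RNAs and 7.53-fold for rows of ribosomal RNA, against 0.970-fold for protein-coding genes and 0.665-fold for processed pseudogenes. The U1 gene RNU1-1 was at 224, 213 and 1259.9 FPKM and the 5.8S ribosomal RNA row RNA5-8S5-7 at 71.8, 115 and 963 FPKM. Over 7042 protein-coding genes of at least 5 FPKM with a transcript sequence, the median difference of replicate 3 from the others on log2(FPKM + 0.1) was 0.24 in the bin of genes lowest in GC content, of 5 bins of equal size, and -0.39 in the highest bin. Between replicates 1 and 2 the same medians were 0.05 and -0.05. Spearman's rho of the difference with GC content was -0.557 for replicate 3 against the others and -0.485 for replicate 2 against replicate 1. A trend with GC content was thus also present between replicates 1 and 2, at a smaller size. Replicate 3 was the lowest of the 3 libraries for 42 of 48 secreted liver genes that were on (87.5%) and for 51.5% of all protein-coding genes that were on. The median GC content of these genes was 49.3% and 47.1%. The part of GC content or depth in the lower plasma protein transcripts of replicate 3 was not tested.

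**Figure D5:**
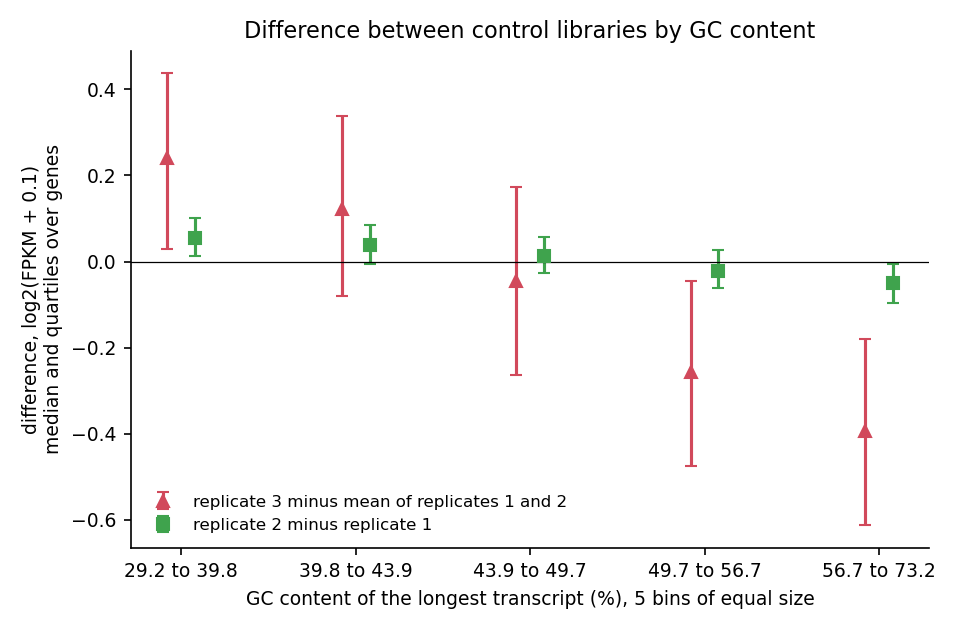
Difference between control libraries on log2(FPKM + 0.1), by 5 equal bins of protein-coding genes ordered by the GC content of the longest transcript, with the median and quartiles over genes. Replicate 3 against the mean of the others falls from 0.24 to -0.39 across the bins, and replicate 2 against replicate 1 from 0.05 to -0.05.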

How the data were processed

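Per the labels, total RNA was freed of ribosomal RNA and made into directional libraries. According to the submitters' processing notes, the authors trimmed reads with cutadapt (1.14), aligned them with HISAT2 (2.1.0) to GRCh38, counted reads per gene with featureCounts (1.5.3) and normalized with edgeR (3.18.1). The deposited values are FPKM per gene for 58174 Ensembl genes in 45 biotypes, beside each gene's length in bases as deposited by the authors, which entered the read recovery as another, unscaled quantity. Whether reads were assigned by strand is not given in the sources used here, so genes that overlap on opposite strands cannot be told apart. The table also holds the authors' fold changes, p-values and FDR of a comparison, which were not used.

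Only the 3 siC columns were read. FPKM times gene length was a whole multiple of 1 value per library, so reads were recovered (100% of values above 0 within 0.05 of a whole read). These reads gave depths, shares and floors of 3 reads, which cover counting error only. No test was run, since 1 group is described. Genes of 22 lists (467 symbols, all matched) were described, together with the 20 protein-coding and 10 long noncoding genes of highest mean. Added to these were the 3 highest of each other biotype with at least 20 genes on. The 5 protein-coding genes furthest above and below in replicate 3 and the 5 of smallest variation were described as well. Some list members are counted but not reported singly here. The members and lists were chosen with earlier results of these data known. Coordinates came from GENCODE 44 (GRCh38), in which 57392 identifiers were found, promoters from RefSeq. Means are given with SD over 3 libraries. Alternatives were other thresholds, TPM, pseudocounts, filters and leaving out each library. The scripts were tested on simulated data. Python 3.11.15, pandas 2.3.3 and scipy 1.17.1 were used.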

Additional observations from a re-analysis of the deposited data

How the results depend on the processing

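Of 50 values recomputed under another setting, 41 stayed within 1.5-fold (counts) or 1 SD (levels and shares). For levels and shares, leaving out 1 of 3 libraries cannot move the mean by 1 SD. Those values were therefore bound to stay, and their staying says nothing about how stable they are. A threshold of 5 FPKM left 7279 genes and 6548 protein-coding genes on, while 0.5 FPKM gave 15741 and 11194. Rescaling to TPM moved AFP to 7919, ALB to 4543, APOA1 to 1123 and GPC3 to 855 TPM. TPM multiplies all FPKM of a library by 1 value, so the order of genes within a library could not change. These levels moved through the change of unit, which says nothing about how stable they are. The 100 highest genes took 47.7% of FPKM but 18.6% of recovered reads, and protein-coding genes took 92.6% of reads but 57.5% of FPKM, since short noncoding genes weigh more in FPKM. The mean correlation of the libraries was 0.937 over all biotypes and 0.975 over protein-coding genes. Leaving out 1 library gave 13539 to 13913 genes on, 10337 to 10490 protein-coding genes on and 241 to 246 list members on. AFP then ranged from 3002 to 3421 FPKM, ALB from 1779 to 1868, APOA1 from 401 to 527 and GPC3 from 324 to 371. Among single lists, 15 of 154 recomputed counts moved by over 1.5-fold. These included the HOX genes, of which 1 was on at 5 FPKM and 20 in TPM, and the xenobiotic enzymes, of which 3 were on at 5 FPKM. Depth limits the off class, since a gene shorter than 2180 bases is off in replicate 3 only with fewer than 3 reads. No paired analysis was possible because only 1 group is described.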

Other observations

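Some transcripts outside the liver lists stood out. In the immunoglobulin lambda locus on chromosome 22, IGLV5-52 (12, 10.3 and 15 FPKM) and IGLV1-51 (6.12, 7.06 and 4.67 FPKM) were on, while 207 of the 213 immunoglobulin genes of the table were at 0 in all 3 libraries and no other was on. PRAME (3.97, 3.36 and 2.29 FPKM) and ZNF280B (3.51, 3.76 and 5.99 FPKM), protein-coding genes within the same 241 kb, were on too. These genes were chosen after their values were seen, and the structure of these transcripts was not tested.

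All 37 genes of the mitochondrial genome were listed at 0, while 7 of 392 nuclear copies of them were on, led by MTATP6P1 (118, 120.1 and 105 FPKM) and MTCO1P12 (72, 73.8 and 157 FPKM). By FPKM the ribosomal protein pseudogene RPL41P1 stood above its parent gene, RPL41 at 359, 208 and 117 FPKM, in 3 of 3 libraries. By reads the order was the reverse, with 4202, 7013 and 1035 for RPL41P1 and 8520, 7259 and 1753 for RPL41. The copy is listed at 81 bases and the parent at 1088 bases, and FPKM divides by length. EEF1A1P5 reached 1080.2, 1082 and 875 FPKM. These genes and their copies are near-identical in sequence, and their levels are uncertain. MIR6087, a row derived from ribosomal RNA, was at 0.935, 3.19 and 528 FPKM and MIR3648-1, another, at 105, 105 and 415 FPKM, both highest in replicate 3. MIR17HG, the host transcript of an oncogenic microRNA cluster, was on at 8.67, 9.11 and 13.9 FPKM. These rows were also chosen after their values were seen.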
